A study of Mus musculus with 12 samples.

Results

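The genes described here are named as nuclear subunits of oxidative phosphorylation. They were measured by polyA RNA-seq in 2 areas of mouse prefrontal cortex, the prelimbic (PL) and the infralimbic (IL). They were chosen by symbol: Nduf followed by a, b, c, s or v and a digit, Sdha to Sdhd, and names starting with Uqcr, Cox4 to Cox8 or Atp5, without names marked as pseudogenes (-ps), and with a mean of at least 5 CPM (counts scaled to library size) over the 12 libraries. This took 76 of the 55421 genes in the count table: 35 of complex I, 4 of complex II, 8 of complex III, 12 of complex IV and 17 of ATP synthase. This symbol rule matched 97 identifiers before the threshold. It does not take every subunit, and Ndufab1, the acyl carrier protein of complex I (29.7 CPM), lay outside it. It goes by name alone, so members such as Atp5s and Cox7a2l were taken without a check that their products are subunits. Of the matched identifiers that are not members, 8 were -ps names, of which Ndufb1-ps (11.9 CPM) reached the threshold, and 13 lay below it. The member just inside the threshold was Ndufa11, at 11.7 CPM, and the symbol just outside it was Cox6a2, at 1.53 CPM, so no gene lay close to the threshold. All 76 members passed the filter on low counts and were tested.

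All mice were wild-type C57BL/6 males aged 10 to 12 weeks that had received 3 pairings of a tone with a 0.7 mA foot shock; per the labels, animals that froze too little at the last tone had been excluded. They were then injected intraperitoneally with dexmedetomidine (Dex), a sedative agonist of alpha2 adrenergic receptors, at 40 µg per kg, or with saline, each in 10 ml per kg, and tissue was taken 2 h after training. Each of the 4 combinations of area and treatment (PL saline, IL saline, PL Dex, IL Dex) has 3 libraries; every group was trained, so no untrained level is given. The sample titles name the region, whereas the extraction text names prelimbic tissue throughout; the titles were followed. Each library carries a batch number from 1 to 3 equal to its sample number, and the labels do not say whether the samples of a group are separate mice. The p-values therefore reflect sample-to-sample spread, which may be technical.

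Oxidative phosphorylation passes electrons from NADH (complex I) and succinate (complex II) through complex III to oxygen at complex IV, and ATP synthase uses the resulting proton gradient. Neurons draw most of their ATP from it, and the cost of synaptic transmission is a large part of that demand. Most subunits are encoded in the nucleus, and a small core of hydrophobic subunits of complexes I, III, IV and ATP synthase is encoded in mitochondrial DNA. All 37 mitochondrially encoded genes had 0 counts in every library, so only the nuclear side was measured.

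Nuclear respiratory factor 1 (NRF1) and the ETS factor GABPA (nuclear respiratory factor 2) are known activators of many of these genes, and their letters were searched on both strands in the 250 bases before the start of each gene. RefSeq promoters (GRCm38.p6) were found for 64 of the 76 members. The NRF1 letters (GCGCA, any base, GCGC) were in 12 of these 64 promoters (18.8%), against 3.86% of 27025 promoters of all genes. The ETS letters CCGGAAG were in 11 (17.2%, against 7.05%), and 20 members held at least 1 of these motifs, of which 3 held both. The CCAAT box was in 27 (42.2%, against 34.5%), the GC box letters GGGCGG in 22 (34.4%, against 32.9%), the TATAAA letters in 5 (7.81%, against 13.0%) and the YY1 letters GATGGCGGC in 1 (1.56%, against 0.455%). Member promoters also had more G and C than the others (median 56.4% against 52.0%). A match is a description of these letters and not of binding.

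Stretches are shown for 4 complex I genes, each limited to bases that no exon of the count annotation covers, read 5′ to 3′ on the strand of the gene (the minus strand in each case), with NRF1 or ETS letters in capitals. Ndufa10 is shown because it is the gene that passed the test between regions in both saline and Dex mice; its window held neither motif. Ndufs5 and Ndufb4 show NRF1 letters, beginning 98 and 191 bases before the RefSeq start, and Ndufb6 shows the ETS letters on the other strand, beginning 232 bases before it. The positions are chr1:92473861-92474008 for Ndufa10, chr4:123718203-123718436 for Ndufs5, chr16:37654454-37654618 for Ndufb4 and chr4:40279422-40279671 for Ndufb6.
Ndufa10: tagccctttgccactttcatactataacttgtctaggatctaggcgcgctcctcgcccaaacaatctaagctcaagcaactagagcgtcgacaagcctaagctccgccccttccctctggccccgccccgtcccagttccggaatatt
Ndufs5: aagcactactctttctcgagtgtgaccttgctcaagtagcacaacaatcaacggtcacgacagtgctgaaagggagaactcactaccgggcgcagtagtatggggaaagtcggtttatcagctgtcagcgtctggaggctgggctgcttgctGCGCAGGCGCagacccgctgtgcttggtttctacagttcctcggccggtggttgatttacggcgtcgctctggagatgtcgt
Ndufb4: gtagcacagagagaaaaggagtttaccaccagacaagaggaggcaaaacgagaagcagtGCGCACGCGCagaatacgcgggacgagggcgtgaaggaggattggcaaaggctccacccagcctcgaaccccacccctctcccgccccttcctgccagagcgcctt
Ndufb6: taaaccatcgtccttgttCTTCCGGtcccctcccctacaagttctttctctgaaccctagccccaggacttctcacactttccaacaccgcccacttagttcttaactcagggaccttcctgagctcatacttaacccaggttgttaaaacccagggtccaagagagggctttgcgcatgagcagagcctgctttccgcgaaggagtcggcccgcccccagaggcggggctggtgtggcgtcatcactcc

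Libraries held 5419187 to 16530596 counts, and the 76 genes took 0.420% to 0.528% of them, or 23634 to 81045 counts per library. Brain cell types were represented: all 6 neuronal markers (Snap25, Syt1, Rbfox3, Slc17a7, Gad1 and Gad2) and all 6 astrocyte and 6 oligodendrocyte markers were detected in each library. The markers do not separate cortex from other forebrain, and striatal markers were also detected, at a summed 85.2 to 289 CPM in PL and 449 to 753 CPM in IL libraries. Counting used no strand. Among the members, 41 overlapped no other gene, whereas 27 overlapped a gene on the other strand and 12 a gene on their own, so their reads cannot be fully assigned.

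Levels are given first per kb of exon, the scale on which genes can be compared. Complex IV had the highest median level, 48.1 CPM per kb, and complex I the lowest, 18.9 CPM per kb. Medians were 28.5 CPM per kb in complex II, 33.2 in complex III and 20.1 in ATP synthase. The highest single gene was Cox8a, a small subunit of cytochrome c oxidase, at 198 CPM per kb, followed by Atp5a1 and Atp5b, the alpha and beta subunits of the catalytic head of ATP synthase, at 170 and 136. Cox4i1, which encodes a regulatory subunit of complex IV, stood at 104. In complex I the accessory subunit Ndufc2 had the highest level (53.9 CPM per kb). Sdha, the flavoprotein that oxidizes succinate, and Sdhd, a membrane anchor, led complex II at 63.9 and 31.1. Uqcr10, a small subunit, and Uqcrfs1, the Rieske iron-sulfur protein, led complex III at 52.3 and 40.4. The lowest member was Ndufb7 at 3.62 CPM per kb. Lengths are of all annotated exons together, so genes with long rare transcripts are understated.

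**Figure D1:**
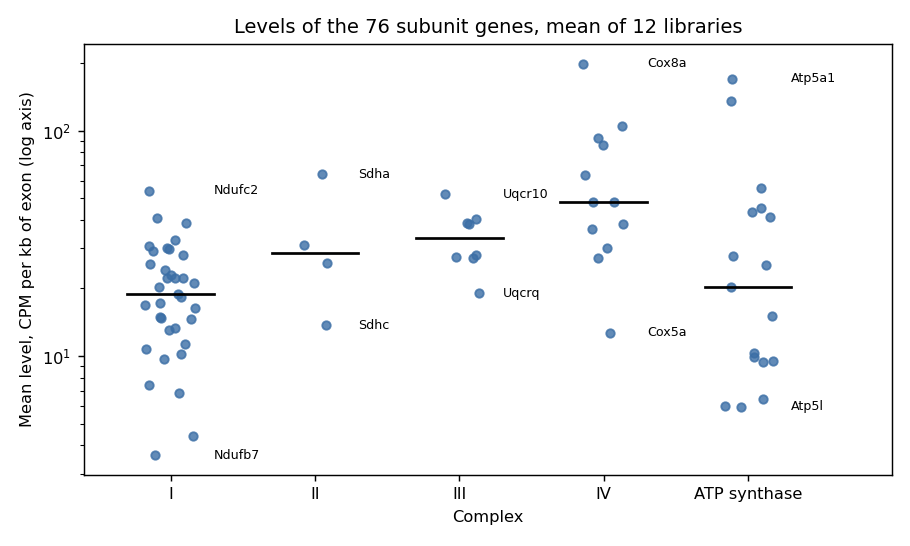
Mean level of each of the 76 genes over 12 libraries, in CPM per kb of exon on a log axis, by complex; each point is a gene, the bar is the median of the complex, and the highest and lowest genes are named. Complex IV has the highest median (48.1) and complex I the lowest (18.9), with genes of 1 complex spread over more than a decade in complexes I, IV and ATP synthase.

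Several subunits have a paralog used in muscle, testis or other tissues, and in each such complex IV pair the ubiquitous form predominated. Cox4i1 exceeded Cox4i2, the form of lung and hypoxic cells, by 99.9 times in summed counts per kb. Cox6a1 exceeded the muscle form Cox6a2 by 41.5 times, Cox7a2 exceeded the muscle form Cox7a1 by 38.3 times, and Cox8a exceeded the muscle form Cox8b by 283 times. Cox6b1 stood above the testis form Cox6b2 by 169 times. Cox7b exceeded Cox7b2 by 95.9 times. Cox6c stood 20.3 times above Cox6c2, which the annotation lists as a processed pseudogene and not as a tissue form. Cox8c had 0 counts in all libraries. The low forms rest on few counts: 93 reads in all for Cox4i2, 174 for Cox6a2, 100 for Cox7a1, 63 for Cox6b2 and 29 for Cox8b. Cox7a2l, a paralog of Cox7a2, was itself a member at 38.6 CPM per kb. Ndufa4, once assigned to complex I and now to complex IV, exceeded Ndufa4l2, its hypoxia-induced paralog, by 51.2 times. The 3 genes for subunit c of the ATP synthase ring, whose mature proteins are the same, were all members. Atp5g3 stood 4.34 times above Atp5g1 and 4.04 times above Atp5g2 per kb, but the annotated exons of Atp5g1 are longer, at 4912 bases against 2181 for Atp5g3.

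The effect of Dex on these genes in prelimbic cortex, 2 h after training, was examined first. None of the 76 genes passed the test (edgeR, adjusted p under 0.05), against 0.02% of the 20015 genes tested. DESeq2 also called 0, against 0.593% lower and 0.38% higher of the 12640 genes to which it gave an adjusted p. The fit with the replicate block called 0 as well (0.00999% of all genes lower and 0.005% higher). An unadjusted p under 0.05 was found for 5 members, 4 lower and 1 higher with Dex, a share of 6.58% against 13.9% of all genes. The fold changes nonetheless lay mostly below 0. They were positive in 19 and negative in 57 of the 76, with a median log2 fold change of −0.13 against −0.0025 over all genes. By complex the medians were −0.13 in complex I, −0.02 in complex II, −0.13 in complex III, −0.24 in complex IV and −0.13 in ATP synthase. No member had all PL Dex libraries below or above all PL saline libraries, whereas 6.82% of all genes were lower and 7.57% higher in this sense.

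Uqcrb, a small subunit of complex III close to the quinone site, had the smallest p among the members with lower values. It was at 36.9, 34.8 and 29.0 CPM in the PL saline libraries and at 17.6, 16.1 and 32.0 CPM in the PL Dex libraries, numbered 1 to 3. PL Dex libraries 1 and 2 thus lay below each saline library and library 3 among them. Its log2 fold change with Dex was −0.61 (SE 0.240, 95% interval −1.12 to −0.10, edgeR adjusted p 0.294). Cox6c, a structural subunit of complex IV, showed the same arrangement, with 121, 129 and 116 CPM in saline libraries and 96.2, 75.6 and 120 CPM in Dex libraries. Its log2 fold change was −0.32 (SE 0.141, edgeR adjusted p 0.319). For Ndufb3, an accessory subunit of the membrane arm of complex I, the levels were 22.8, 21.9 and 17.6 CPM with saline and 12.1, 11.1 and 20.4 CPM with Dex (log2 fold change −0.51, edgeR adjusted p 0.329). Atp5o, which links the head of ATP synthase to its peripheral stalk, gave 25.9, 18.3 and 27.1 CPM with saline and 14.1, 13.7 and 24.4 CPM with Dex. In all of these genes the third PL Dex library reached the saline range.

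On the other side stood Ndufv1, which carries the NADH and flavin site of complex I. It was at 58.6, 84.0 and 87.7 CPM with saline and 102, 102 and 86.4 CPM with Dex, so that Dex library 3 fell within the saline range (log2 fold change 0.33, SE 0.138, edgeR adjusted p 0.302). Atp5d, the delta subunit of the central stalk of ATP synthase, had 0.30 (SE 0.154, adjusted p 0.384 in edgeR). After a correction for GC content these values were 0.12 for Ndufv1 and 0.05 for Atp5d. The genes with positive values were thus mostly small in effect, and none of the 76 changed by the test.

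The main catalytic subunits of ATP synthase and complex II had small fold changes with Dex. Atp5a1 was at 533, 510 and 545 CPM in PL saline, 542, 548 and 576 in PL Dex, 483, 527 and 545 in IL saline and 496, 517 and 583 in IL Dex, so that all groups overlapped. Its log2 fold change with Dex was 0.07 in PL (95% interval −0.12 to 0.26) and 0.04 in IL (−0.15 to 0.23). Atp5b gave 0.06 in both regions. For Sdha the values were 0.06 in PL (95% interval −0.13 to 0.25) and −0.01 in IL (−0.20 to 0.18). The iron-sulfur subunits of complex I had PL values of −0.09 for Ndufs1, −0.26 for Ndufv2, 0.15 for Ndufs7 and 0.07 for Ndufs8, and Ndufs3, their neighbour in the peripheral arm, had −0.24. Sdhb, the iron-sulfur subunit of complex II, had −0.10, Uqcrfs1 0.04, the core protein Uqcrc1 0.14 and Cox5a −0.09. None passed the test in either region. The inhibitor of ATP synthase, Atpif1, which the symbol families do not take, was at 35.3, 22.8 and 28.8 CPM in PL saline and at 12.1, 7.95 and 30.1 CPM in PL Dex. Its log2 fold change was −0.78 (SE 0.397, edgeR adjusted p 0.404), and as in Uqcrb the third PL Dex library lay in the saline range.

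**Figure D2:**
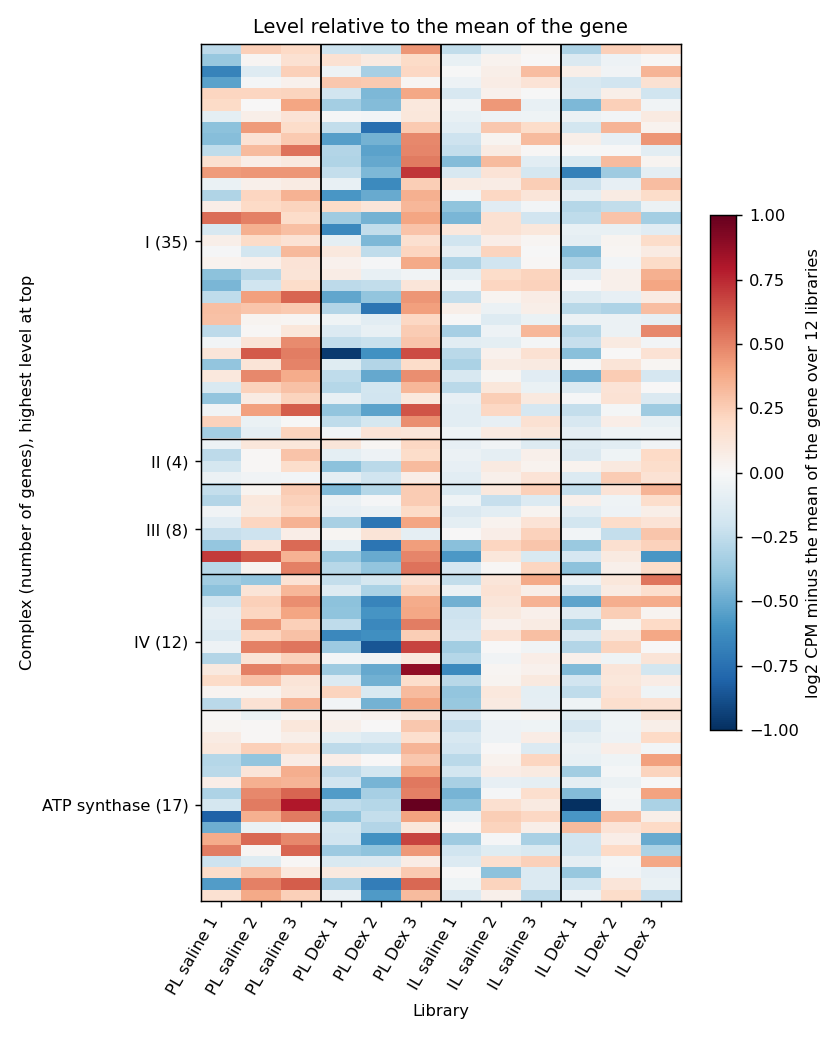
log2 CPM of each of the 76 genes (rows, by complex and level) in each library (columns), minus the mean of the gene over the 12 libraries; red is above and blue below that mean, and values beyond 1 take the end colours. PL Dex library 3 is mostly red, PL Dex libraries 1 and 2 are mostly blue, and library 1 is mostly blue in the other groups.

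Variation between libraries of 1 group was a main feature of these genes. Within PL Dex, library 3 had the highest level in 72 of the 76 members, whereas it was the highest in 36.3% of all genes tested. The lowest PL Dex level was in library 2 for 49 members and in library 1 for 25. Library 1 was the lowest of its group for 59 members in PL saline, 64 in IL saline and 57 in IL Dex, against 34.2%, 35.5% and 34.4% of all genes. The 76 genes thus moved together from library to library in every group. The median coefficient of variation of the members was 26.6% in PL Dex, 16.7% in PL saline, 11.2% in IL saline and 13.6% in IL Dex. Over all genes it was 19.2%, 15.4%, 11.3% and 15.0%, so the members stood above the other genes mainly in PL Dex.

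The mean relative log2 level of the 76 genes summarises this. For libraries 1 to 3 of PL saline it was −0.11, 0.16 and 0.27, and the others followed with −0.20, −0.31 and 0.33 in PL Dex, −0.18, 0.05 and 0.05 in IL saline, and −0.19, 0.05 and 0.08 in IL Dex. The highest and the lowest of the 12 libraries were both PL Dex libraries. Summed neuronal markers were 5522, 5604 and 5861 CPM in PL saline, 5314, 4703 and 6208 in PL Dex, 3677, 3884 and 4037 in IL saline, and 3883, 4020 and 4248 in IL Dex. In each group the library with the lowest neuronal sum was also the one with the lowest subunit level, and in all groups but IL saline the highest coincided too. Snap25 and Syt1 had the highest levels in this sum, and the markers did not all follow it. Syt1 was lowest in library 1 of PL saline, IL saline and IL Dex. Snap25 was lowest in library 3 of PL saline and in library 2 of IL saline and IL Dex. Gad1 and Gad2 were lowest in library 3 of these groups. Rbfox3 and Slc17a7 were lowest in library 2 of PL saline but in library 1 of IL saline. In PL Dex the match was not particular to neurons, nor shared by each neuronal marker. Astrocyte markers summed to 6388, 5126 and 6917 CPM there, in the same order of libraries as the subunit level. Gfap (78.4, 59.1 and 54.0 CPM) and Aldh1l1 (43.0, 38.5 and 33.1 CPM) departed from that order, and Slc1a2, Slc1a3, Gja1 and Aqp4 kept it. Among neuronal markers, Slc17a7 (1205, 1098 and 1105 CPM) and Rbfox3 (198, 149 and 182 CPM) were highest in PL Dex library 1. In the other groups the astrocyte sums were not in the order of the subunit level. They were 6809, 7095 and 6348 CPM in PL saline, 5752, 5721 and 5357 in IL saline, and 5982, 5713 and 5562 in IL Dex. The part of these markers in the result was not tested. Oligodendrocyte markers summed to 4684, 1758 and 2927 CPM in the PL Dex libraries, and striatal markers to 289 CPM in PL saline library 1 and 183 CPM in PL Dex library 1 against 85.2 to 107 CPM in the other PL libraries. In bulk tissue, fewer cells of a type and less RNA per cell cannot be told apart.

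**Figure D3:**
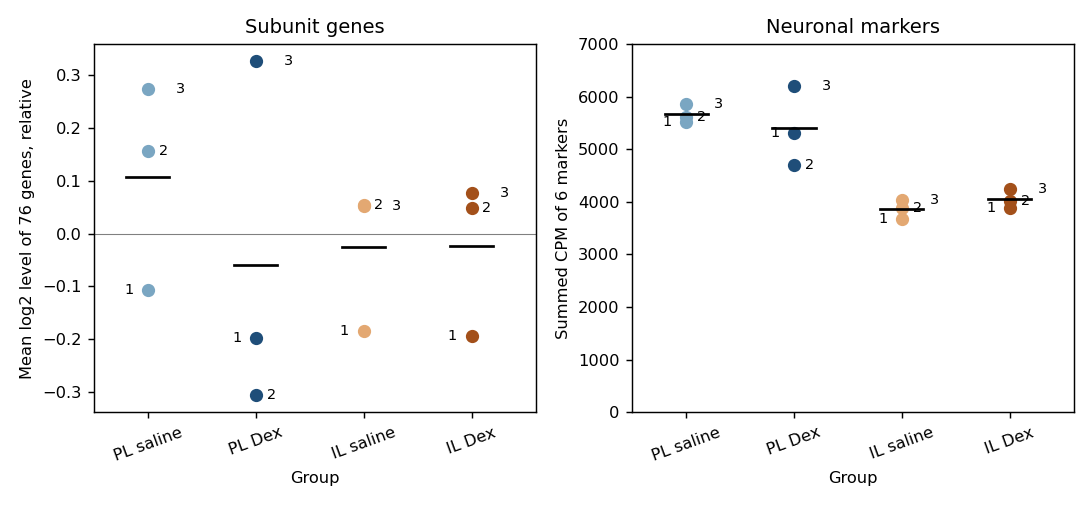
Left, mean log2 level of the 76 genes relative to the mean of each gene; right, summed CPM of 6 neuronal markers; points are libraries with their number, bars are group means. PL Dex spans −0.31 to 0.33 on the left and 4703 to 6208 CPM on the right, with libraries 2, 1 and 3 in the same order in both panels.

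Comparing libraries of the same number, the median difference of the 76 genes between PL Dex and PL saline was −0.06, −0.43 and 0.05 (log2) for numbers 1, 2 and 3. It was lower in all 3 numbers for 12 members (15.8%), against 14.5% of all genes. The difference was thus negative mainly in number 2. Leaving out PL Dex library 3 gave 23 of 76 members lower with Dex (4.25% of all genes were lower in that fit) and 0 higher (2.81%), with a median of −0.38. The 23 comprised 10 genes of complex I, 2 of complex III, 6 of complex IV and 5 of ATP synthase, and none of complex II. The smallest p values were those of Ndufc1 (−1.21, SE 0.216, edgeR adjusted p 0.00648), an accessory subunit of complex I, and of Atp5f1 (−0.57) and Atp5j (−0.85), both of the peripheral stalk of ATP synthase. Leaving out PL Dex library 1 or 2 instead gave medians of −0.04 and −0.0023 and 0 called. The comparison in PL thus rested on which PL Dex libraries were included.

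Libraries also differed in how level depended on GC content. The slope of relative level on GC content, in log2 per 10 percentage points over all genes, ran −0.26, −0.32 and −0.07 for PL saline numbers 1 to 3, and 0.12, 0.10 and −0.06 for PL Dex. It was 0.02, 0.09 and 0.14 for IL saline and −0.01, 0.04 and 0.20 for IL Dex. In IL Dex both slope and subunit level rose from library 1 to 3, and in PL saline library 3 had the highest of both. In IL saline library 1 was the lowest in both. PL Dex library 3 had the highest subunit level and the lowest slope of its group. Over all genes, the median PL fold change with Dex was −0.13 among those with GC content up to that of the lower-GC members and 0.18 among the others. The lower-GC 38 members had a median of −0.21 and the higher-GC 38 of −0.11. After the GC correction the median of all 76 in PL was −0.16, with 13 positive. The lower-GC members then had a median of −0.10 and the higher-GC members of −0.23, so the order of the 2 sides changed with the correction. The part of GC content in the result was not tested.

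In infralimbic cortex, Dex and saline libraries were close for these genes. None of the 76 members passed the test in edgeR (0% of all genes) or DESeq2, or without the low-count filter (0.00513% lower and 0.00257% higher), and 0 had an unadjusted p under 0.05, against 1.06% of all genes. The median log2 fold change was 0.02 (0.0062 over all genes), 46 of 76 were positive, and the values ran from −0.39 to 0.21. The libraries did not overlap in 1 gene that was higher with Dex, Uqcrfs1 (53.1, 46.5 and 49.7 CPM with saline and 56.8, 53.2 and 61.7 CPM with Dex, log2 fold change 0.20, 95% interval −0.07 to 0.48). They did not overlap either in 1 gene that was lower, Ndufb10, an accessory subunit of complex I (26.2, 27.0 and 26.3 CPM with saline and 23.1, 23.0 and 22.5 CPM with Dex, −0.21, 95% interval −0.59 to 0.16). Such separation was found for 3.79% of all genes with higher and 3.99% with lower values. Atp5k, subunit e of ATP synthase, had the lowest value, −0.39 (SE 0.372), at 5.15 to 12.8 CPM in IL libraries. Of the next by p, Cox5a had 0.21, Ndufc2 0.18 and Ndufa5, of the peripheral arm of complex I, −0.28, each with an edgeR adjusted p of 1.00. Same-numbered libraries gave medians of 0.02, −0.01 and 0.06.

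Whether the effect of Dex differed between regions was tested directly as an interaction. No member passed (0% of all genes in edgeR; DESeq2 called 0 members as well), and 1 had an unadjusted p under 0.05, against 6.73% of all genes. The median difference, PL effect minus IL effect, was −0.17 over the members and 0.00019 over all genes, with 17 of 76 positive. The smallest p were those of Ndufv1 (0.44, SE 0.194), Cox6c (−0.37, SE 0.198) and Ndufb3 (−0.57, SE 0.321), with edgeR adjusted p values of 0.716, 0.716 and 0.719. Atp5o had −0.50, Uqcrb −0.57 and Uqcrc1 0.22. Without PL Dex library 3 the median was −0.41 and 1 member, Atp5f1, passed (−0.68, edgeR adjusted p 0.0459, with 0.505% of all genes lower in that fit).

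**Figure D4:**
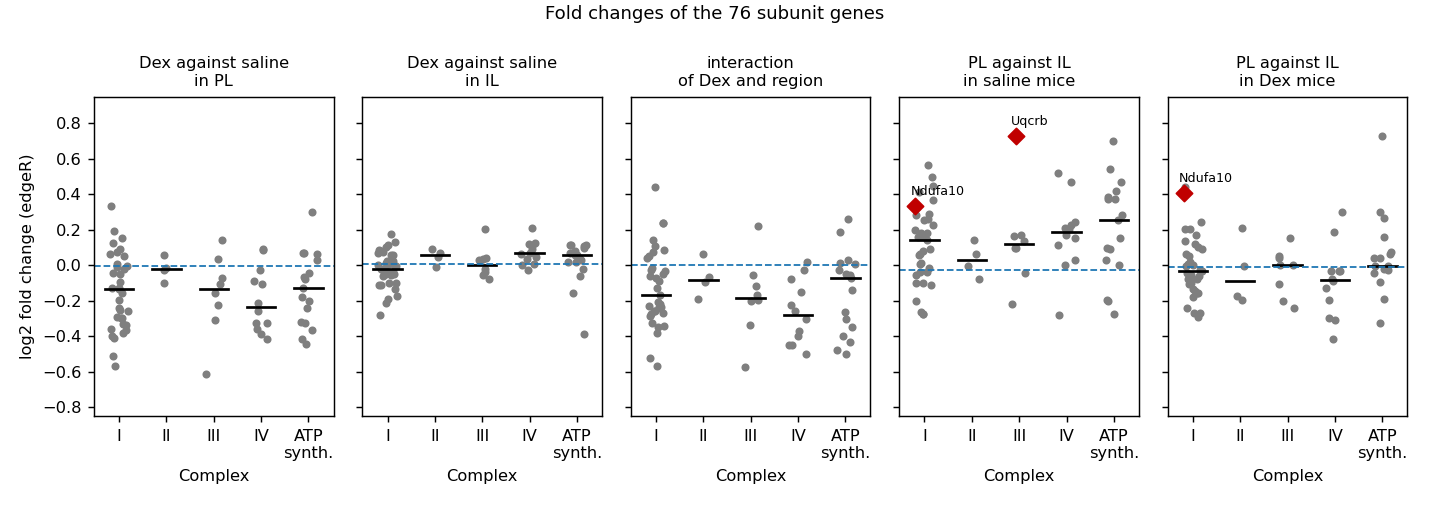
log2 fold change (edgeR) of each of the 76 genes in the 5 comparisons, by complex; grey points did not pass the test, red diamonds did, black bars are medians of a complex and the dashed line is the median of all genes. Most points lie below 0 for Dex in PL and above 0 for PL against IL in saline mice, and the named diamonds are Ndufa10 and Uqcrb.

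The regions themselves were compared in saline mice. Uqcrb and Ndufa10 were higher in PL than in IL, and no member was lower: 2 of 76 (2.63%) were called higher, against 9.97% of all genes. Over all genes 18.7% passed in either direction. DESeq2 called 3, adding Atp5j, where it called 11.1% of all genes higher. The median log2 fold change was 0.15 (−0.025 over all genes) and 57 of 76 were positive. By complex it was 0.14 in complex I, 0.03 in II, 0.12 in III, 0.19 in IV and 0.26 in ATP synthase. An unadjusted p under 0.05 was found for 10 members, all higher in PL (13.2%, against 32.6% of all genes in either direction). The shares of called members were thus below the background, although most values were positive. The 6 neuronal markers were split, with 3 higher and 3 lower in PL by value. By the test Snap25 (0.88) and Syt1 (0.82) were higher and Gad1 (−0.62) was lower. Mean levels in PL saline against IL saline were 216 against 340 CPM for Gad2 and 153 against 164 CPM for Rbfox3. For Slc17a7 they were 1008 against 741 CPM. The sum of the 6, in which Snap25 and Syt1 had the highest levels, was 5522 to 5861 CPM in PL saline against 3677 to 4037 CPM in IL saline. Striatal markers were lower in PL. Their part in the result was not tested.

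Ndufa10 (ENSMUSG00000026260, GRCm38 chromosome 1, 92439010 to 92473860, minus strand), an accessory subunit of complex I related to nucleoside kinases, was at 76.3, 83.6 and 84.7 CPM in PL saline and at 55.0, 67.2 and 71.6 CPM in IL saline. In Dex mice it was at 83.1, 79.2 and 91.6 CPM in PL and at 59.6, 61.5 and 69.8 CPM in IL. Each PL library was thus above each IL library of both treatments. The log2 fold change of PL against IL was 0.33 in saline mice (SE 0.115, 95% interval 0.09 to 0.57, edgeR adjusted p 0.0474) and 0.41 in Dex mice (SE 0.117, 95% interval 0.16 to 0.65, adjusted p 0.0357). With the replicate number as a block the adjusted p values were 0.0241 and 0.0165. A microRNA gene, Mir6900, lies within Ndufa10 on its strand. The call in saline mice was lost without the low-count filter (0.31, adjusted p 0.102) and without any 1 of PL saline libraries 1, 2 or 3, PL Dex library 1, IL saline libraries 1 or 2, or IL Dex libraries 1 or 2, with adjusted p values of up to 0.230. Over all single libraries left out, the value stayed between 0.23 and 0.41. In Dex mice the call was lost without PL Dex library 1 or 3, IL saline library 2, or IL Dex library 1 or 2 (adjusted p of up to 0.143), and with only the PL and IL Dex libraries in the fit (0.40, adjusted p 0.0881). The value stayed between 0.36 and 0.49 over all single libraries left out.

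Uqcrb (ENSMUSG00000021520, GRCm38 chromosome 13, 66900617 to 66905378, minus strand) was at 15.3, 24.6 and 20.5 CPM in IL saline, below the 29.0 to 36.9 CPM of PL saline. Its log2 fold change between regions was 0.73 (SE 0.233, 95% interval 0.24 to 1.22, edgeR adjusted p 0.0384). After the GC correction it was 0.48 (adjusted p 0.137), and the call was also lost without PL saline library 1 or 2, IL saline library 1 or 3, or IL Dex library 1, with adjusted p values of up to 0.141. In Dex mice it was 0.15 (SE 0.248), with IL Dex at 20.2, 24.2 and 15.3 CPM. Uqcrb overlaps the predicted gene Gm10767 on the other strand.

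Several further genes were near the threshold in saline mice. Atp5j, coupling factor 6 of the peripheral stalk of ATP synthase, was at 38.3, 43.9 and 41.1 CPM in PL and at 23.1, 29.3 and 23.6 CPM in IL (log2 fold change 0.70, SE 0.239, edgeR adjusted p 0.0545). It overlaps Gabpa, which encodes a subunit of the ETS factor named above, on the other strand. Atp5o had 0.54 (SE 0.203, adjusted p 0.0670 in edgeR) and Ndufb3 0.56 (SE 0.220, adjusted p 0.0794 in edgeR). Without PL Dex library 3 9 members were called higher (11.9% of all genes), including Atp5j, Atp5f1, Atp5o, Atp5c1 and Ndufa5. With only the PL and IL saline libraries in the fit, 12 were called higher (13.8% of all genes). Atpif1 was also higher in PL by value, with a log2 fold change of 1.20 (SE 0.390, adjusted p 0.0540 in edgeR).

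The PL saline libraries lay above all IL saline libraries in 18 members (23.7%), against 20.1% of all genes, and below them in 1, Atp5g2, against 20.2%. Of the 18, 7 belonged to ATP synthase (of 17), 8 to complex I (of 35), 2 to complex IV and 1 to complex III. Those with positive values and separated groups included Ndufs1 (0.18), Ndufv2 (0.26), Ndufs8 (0.23), Ndufa4 (0.52) and Atp5b (0.15), none of which passed the test. The lowest values in PL were those of Cox8a (−0.28), Ndufs7 (−0.28) and Atp5g2 (−0.28). Cox8a was at 94.9, 92.3 and 133 CPM in PL saline and at 102, 131 and 157 CPM in IL saline, so that the groups overlapped while each PL library was below its IL library of the same number. With the replicate block Cox8a passed the test (−0.28, edgeR adjusted p 0.0490), but not with the GC correction and the block together, and its value with the GC correction alone was 0.05. After the GC correction Ndufs7 and Atp5g2 were near 0 (0.06 and 0.01), and Ndufs8 passed (0.51, adjusted p 0.0286).

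**Figure D5:**
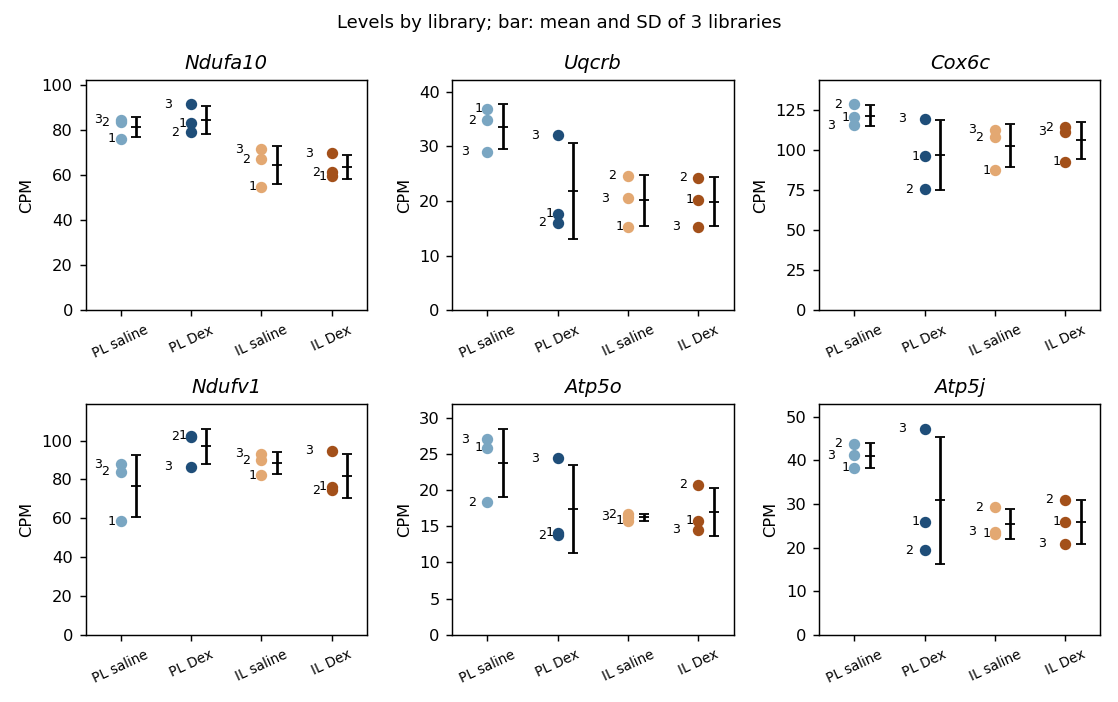
CPM of 6 genes by library, with library numbers beside the points and bars giving the mean and SD of 3 libraries. Ndufa10 is higher in every PL library than in every IL library; in Uqcrb, Cox6c, Atp5o and Atp5j, PL Dex libraries 1 and 2 lie below all PL saline libraries and library 3 among or above them, and in Ndufv1 libraries 1 and 2 lie above them.

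In Dex mice the median difference between the regions was small, but it varied with the libraries compared. Same-numbered libraries gave medians of −0.0003, −0.38 and 0.20 for numbers 1, 2 and 3, with 38, 13 and 57 of 76 members positive. One member, Ndufa10, was called higher in PL (1.32%, against 3.8% of all genes) and 0 lower (3.54%). Over all genes 7.34% passed, and DESeq2 also called Ndufa10 alone among the members, where it called 4.84% of all genes higher. The median log2 fold change was −0.03 (−0.0097 over all genes), with 30 of 76 positive. An unadjusted p under 0.05 was found for 2 members, Ndufa10 and Sdha, against 19.8% of all genes. By complex it was −0.03 in complex I, −0.09 in II, 0.0007 in III, −0.08 in IV and −0.01 in ATP synthase. Sdha was at 285, 266 and 304 CPM in PL Dex and at 240, 244 and 256 CPM in IL Dex, without overlap (0.21, SE 0.0911, edgeR adjusted p 0.198). In all, 5 members were separated with PL higher and 1, Atp5g2, with PL lower, against 10.8% of all genes each way. For Atp5g2 the PL levels were 15.0, 13.9 and 18.4 CPM and the IL levels 21.1, 18.7 and 19.5 CPM (−0.32, edgeR adjusted p 0.289). Without PL Dex library 3 the median was −0.26 and 4 members were called lower in PL (2.38% of all genes): Cox7c (−0.77), Sdhb (−0.44), Cox6b1 (−0.54) and Uqcrh (−0.56). The comparisons of regions and of treatments share libraries, so the values are given side by side only.

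Members with and without the promoter letters were set side by side. The 12 members with NRF1 letters had a median of −0.13 with Dex in PL and the 52 without them −0.14. The 11 with ETS letters had −0.22, with 1 positive, and the 53 without had −0.13, with 16 positive. In the interaction 1 of the 11 and 14 of the 53 were positive, and for PL against IL in Dex mice 1 of the 11 (median −0.10) and 22 of the 53 (median −0.02). For PL against IL in saline mice the medians were 0.15 and 0.15 with and without NRF1 letters, and 0.10 and 0.16 with and without ETS letters. These are medians over genes with no test.

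Genes that surround the respiratory chain were taken as 7 further lists. No gene of these lists passed the test for Dex in either region or for the interaction (edgeR). In PL the medians with Dex were −0.05 for cytochrome c and electron entry (13 genes tested), −0.11 for complex I assembly (22), −0.12 for assembly of complexes III, IV and ATP synthase (31), −0.0031 for the tricarboxylic acid cycle and pyruvate dehydrogenase (21), −0.03 for the mitochondrial ribosome (76), 0.0048 for regulators of mitochondrial biogenesis (21) and −0.02 for carriers and import (21). In the complex I assembly list, which also holds the complex II assembly factor Sdhaf3, 20 of 22 genes were lower with Dex by value. Ndufaf4 (−0.53, edgeR adjusted p 0.216) had the smallest p. Cox16, an assembly factor of complex IV, had −0.94 (SE 0.215, adjusted p 0.155) and Gabpa −0.53 (SE 0.155, adjusted p 0.203). In IL the 7 medians ran from −0.05 to 0.07.

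Between regions in saline mice, calls in these lists went both ways, against the background of 9.97% higher and 8.7% lower given by all genes. Of cytochrome c and electron entry, 2 of 13 were higher in PL, Gpd2 (0.52), the mitochondrial glycerol phosphate dehydrogenase, and Cycs (0.79), cytochrome c itself, and Prodh (−0.65), proline dehydrogenase, was lower. Of the tricarboxylic acid cycle, 3 of 21 were higher, among them Dld (0.61), the shared E3 subunit of the dehydrogenases, and Idh3a (0.48), and 2 were lower, Pcx (−0.51), pyruvate carboxylase, and Idh2 (−0.65). The regulators had 3 of 21 higher and 4 lower. Prkaa2, a catalytic subunit of AMP-activated kinase, was higher (1.04), and Ppargc1b (−0.71), Nrf1 (−0.64) and Esrra (−0.58), which encode a coactivator and 2 transcription factors of mitochondrial genes, were lower in PL. The assembly lists had Sdhaf3 (0.56), the complex II factor, among 22, and Ttc19 (0.32) and Sco1 (0.55) among 31. The mitochondrial ribosome had Mrpl51 (0.46) higher and Mrpl4 (−0.46) lower among 76, and the carriers had Vdac3 (0.45) higher among 21. Calls within 1 list were thus of both signs in 4 of the 7 lists. In Dex mice Gpd2 (0.36), Mrpl48 (0.41) and Prkaa2 (0.63) were higher in PL and Gabpb2 (−0.53) lower, and the other lists had no call.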

How the data were processed

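RNA was measured by polyA RNA-seq in 12 libraries. The authors deposited raw read counts per gene, made with featureCounts 2.0.1 on Ensembl annotation release 98 without strand, per the file headers. The submitters' processing notes also list bcl2fastq, Trim Galore, HISAT2, SAMtools 1.8 and the build mm39, with no order or role. The header names GRCm38, and 54862 of 55154 gene identifiers have the same coordinates in a GRCm38 annotation, so GRCm38 is used. A further 12 count columns match no sample label and were not used.

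From the counts, genes passing edgeR's filterByExpr (20015) were scaled by TMM (factors 0.936 to 1.05) and fitted with edgeR 4.0.16 (R 4.3.3, limma 3.58.1) by robust quasi-likelihood over all 12 libraries with 4 group means and 8 residual degrees of freedom. The 5 contrasts were tested with Benjamini-Hochberg adjustment over all genes at 0.05. CPM levels use these scaled library sizes, and log2 levels a prior count of 2. On simulated counts for the PL comparison (20015 genes) the fit recovered 83% of genes changed by 2-fold and 99% of those changed by 4-fold. The simulation gave each gene the same spread in all groups and no shifts shared by genes of a library. These shares therefore do not apply to the members in PL Dex, which varied more and moved together. Library totals of 5419187 to 16530596 counts set the counting error, and edgeR estimated a biological coefficient of variation of 0.143.

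The members and lists were chosen with earlier results of these data known. Genes were named by rule: the leading 2 per complex by level, those called or with the smallest p in each comparison, tissue-specific paralogs, catalytic and cofactor subunits, those beside the threshold, and leading genes of the other lists. A gene that the rule names is not reported here. Genes named for separated groups, for values near the threshold or from a fit with a library left out were chosen after their values were seen, as were the promoters shown.

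The batch number used here equals the sample number, and it was used to match samples in the replicate block and the same-number comparisons. Same-numbered deviations from group means correlated at 0.284 to 0.337 between IL saline and IL Dex, and at 0.00857 to 0.108 between PL saline and PL Dex. Across regions they correlated at 0.0265 to 0.191 between PL saline and IL saline, and at −0.0933 to 0.0377 between PL Dex and IL Dex. Alternatives were DESeq2 1.42.0, its size factors in edgeR, no low-count filter, the replicate block, a GC correction (lowess, span 0.3, on 19992 genes with GC content), both together, only the groups compared, each library left out, and a membership threshold of 1 or 20 CPM.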

Additional observations from a re-analysis of the deposited data

How the results depend on the processing

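Depth and 3 libraries per group limit these comparisons. For Dex in PL the number of members called ran from 0 to 23 over single libraries left out, 23 being without PL Dex library 3, and the median log2 fold change from −0.38 to −0.0023; in the other alternatives 0 were called and the median lay between −0.16 and −0.10. The interaction gave 0 to 1 calls and medians of −0.41 to −0.032 with a library left out. For Dex in IL no alternative called a member, and medians with a library left out ran from −0.05 to 0.10. PL against IL in saline mice gave 6 calls with no low-count filter, 12 with only the groups compared, and 0 to 9 with a library left out, with 0 without PL saline library 1, IL saline library 1 or IL Dex library 1, 4 without PL Dex library 2 and 9 without PL Dex library 3. It gave 1 call without PL saline library 2 or 3, PL Dex library 1, IL saline library 2 or 3, or IL Dex library 2. Its median stayed between 0.06 and 0.24. PL against IL in Dex mice gave 2 calls with no low-count filter, 2 with the GC correction and the replicate block together, and 0 with only the groups compared. With a library left out it gave 0 to 4 calls, with 0 without PL Dex library 1, IL saline library 2 or IL Dex library 1 or 2, and 4 without PL Dex library 3; its medians ran from −0.26 to 0.091. With the replicate block alone the calls were 0 for Dex in PL (median −0.14), 0 for Dex in IL, 0 for the interaction (median −0.16), 3 for PL against IL in saline mice (median 0.15) and 1 in Dex mice, so that Cox8a in saline mice was the call it added. No value changed direction while called. Of the 21 gene and comparison pairs followed singly, 22 alternative values lost a call, all for Uqcrb and Ndufa10 between regions, and 3 gained one, for Uqcrb, Cox6c and Ndufb3 with Dex in PL without PL Dex library 3; other members that gained calls are within the counts above. The causes were not tested.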
